A study of Mus musculus with 2 samples.

Results

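Mir126a and Mir126b are annotated microRNA hairpins on opposite strands of 1 locus inside Egfl7, a gene of blood vessel endothelium. They were found in the deposited tables by their Ensembl gene identifiers, ENSMUSG00000065540.1 for Mir126a and ENSMUSG00000105799.1 for Mir126b, and are 2 of 2202 hairpins. MicroRNAs were sequenced from the hearts of B6CASTF1/J females, an F1 hybrid strain, with 2 animals aged 25 days by the age field, although a free-text label gives another unit. The animals are biological replicates 1 and 2 of 1 group, numbered separately in the labels but carrying the same donor identifier, and the data analysed here hold neither a control nor another group. The tables held 2050498 hairpin reads in replicate 1 and 2661090 in replicate 2. Levels are given as CPM, the reads of a hairpin per 1e6 hairpin reads of its library. A microRNA read covers a whole mature arm, so a count does not grow with hairpin length, and levels were compared per read. Errors are SD with n = 2.

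MicroRNAs are cut from folded precursors called hairpins, and each hairpin can give a mature arm from its 5′ side and another from its 3′ side. The mature arm is loaded into an Argonaute protein and finds messenger RNAs mainly through its seed, the bases near its 5′ end. The microRNA miR-126 is known as the characteristic microRNA of endothelial cells in mouse, zebrafish and human. Its 3p arm represses Spred1 and Pik3r2, inhibitors of signalling downstream of the vascular growth factor VEGF, and its loss in mice gives leaky vessels. Bulk heart tissue holds endothelial cells beside cardiomyocytes, fibroblasts and mural cells, and the cells of origin were not separated here.

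The locus is shown first because the 2 hairpins overlap almost completely, which decides how reads can be assigned. Sequences are RefSeq entries on GRCm38.p6, the assembly also called mm10, written 5′ to 3′ with the listed mature arms in capitals.
Mir126a: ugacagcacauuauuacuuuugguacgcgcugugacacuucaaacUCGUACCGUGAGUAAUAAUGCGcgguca
Mir126b: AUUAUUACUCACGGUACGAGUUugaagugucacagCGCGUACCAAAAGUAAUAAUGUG
Mir126a has 73 bases and lies on the plus strand of chromosome 2 from 26591357 to 26591429. Mir126b has 58 bases and lies on the minus strand from 26591363 to 26591420. Mir126b is the exact reverse complement of bases 7 to 64 of Mir126a, so Mir126a reaches 6 bases beyond it at the 5′ side and 9 bases at the 3′ side. Both sequences were identical in GENCODE M21. Read on their own strands, the 2 hairpins share no run of identical bases longer than 10. RNAfold placed 27 base pairs in Mir126a with a minimum free energy of -31.2 kcal/mol, and 21 base pairs in Mir126b with -19.3 kcal/mol. Both strands of the locus can therefore be drawn as hairpins, and the read counts below show which of them was seen.

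The mature arms listed for the locus are shown with their seed, bases 2 to 8, in capitals.
miR-126a-3p: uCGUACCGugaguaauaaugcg
miR-126b-5p: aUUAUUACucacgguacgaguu
miR-126b-3p: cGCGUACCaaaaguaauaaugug
The arm miR-126a-3p occupies bases 46 to 67 of its hairpin, and 19 of its 22 bases lie opposite miR-126b-5p. The seeds of these 3 arms differ from each other. Those of miR-126a-3p and miR-126b-3p still share all but an end base when shifted by a position. The arm miR-126a-5p was not used here. Among the 1679 mature names of the RefSeq table, 0 others carried the seed of any of these arms.

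Egfl7 spans 26580014 to 26593120 on the plus strand, the strand of Mir126a. In Egfl7-202, a principal coding transcript of 10 exons, the hairpins lie in intron 7, which runs from 26591064 to 26591663 and is 600 bases long. The hairpin starts 7477 bases after the start of that transcript. Of 12 coding Egfl7 transcripts, 7 have the locus in an intron, 0 in an exon, and 5 do not span it. Among the 7 other transcripts, the locus is intronic in 1 marked for decay and exonic in 1 with a retained intron. In coding transcripts the locus is thus intronic or lies outside the transcript.

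**Figure D1:**
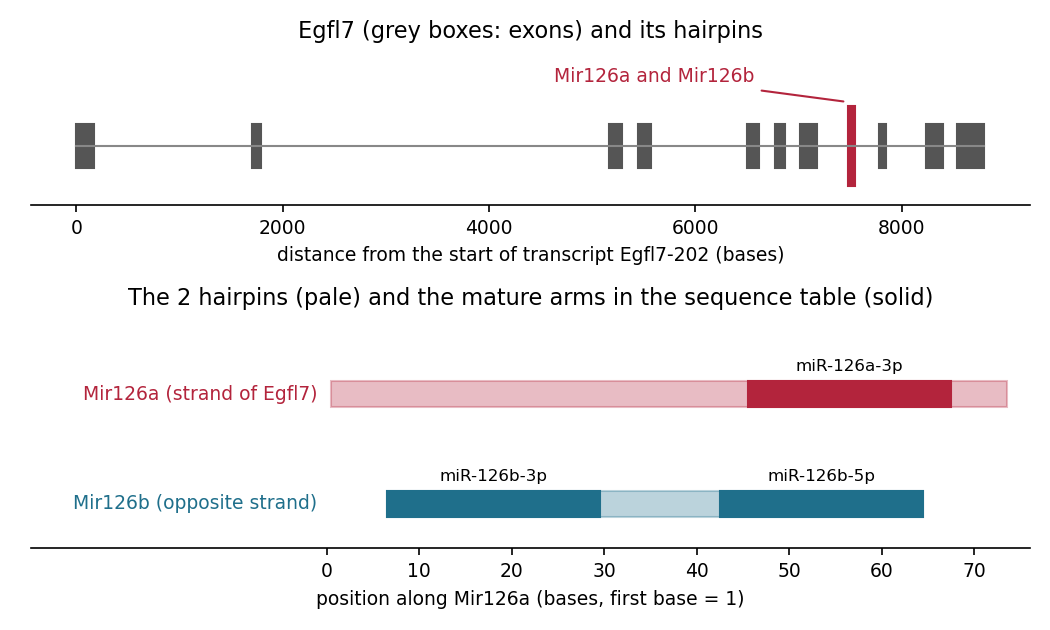
Map of Egfl7 transcript Egfl7-202 (upper panel, exons as grey boxes, x axis in bases from the transcript start) and of the 2 hairpins with their listed mature arms (lower panel, x axis in bases along Mir126a). The hairpins lie in intron 7, and Mir126b covers bases 7 to 64 of Mir126a on the opposite strand.

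Nearly all reads of the locus came from the Mir126a strand, which is also the strand of Egfl7. Mir126a had 221621 reads in replicate 1 and 162194 in replicate 2. Mir126b had 1 read in replicate 1 and 0 in replicate 2. The ratio of Mir126a to Mir126b was 221621 in replicate 1, with an exact 95% interval of 39776 to 8753600. In replicate 2 Mir126a was 54065-fold higher when Mir126b was counted at a floor of 3 reads. Mir126b made up 0.000451% of the reads of the pair in replicate 1, with an exact interval of 1.14e-05% to 0.00251%. For the 0 reads of replicate 2 the exact interval reached up to 0.00227%, and the floor of 3 reads corresponds to 0.00185%. PCR copies could not be recognised, so these intervals and floors describe counting error alone.

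The lone Mir126b read was below the number given by the pooled stray opposite-strand rate of other hairpins. At the 2138 hairpins that have no annotated opposite-strand partner, the other strand held 44 reads against 1440832 on the hairpin strand in replicate 1, which is 0.00305%, and 43 reads against 1892694 in replicate 2, which is 0.00227%. If stray reads rose with hairpin reads, a locus with the reads of Mir126a would hold 6.77 in replicate 1 and 3.68 in replicate 2. The observed counts were 1 and 0. The pooled rate need not hold at each locus. Mir378a, with 326006 reads in replicate 1 and 534518 in replicate 2, had 0 reads on the hairpin opposite it in both. Mir126b was thus not seen above the pooled rate, and the background of this locus itself was not measured. The limits are 1.46 CPM in replicate 1 and 1.13 CPM in replicate 2, each for 3 reads.

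Without the strand, the reads of this locus cannot be assigned. In the column counted without regard to strand, Mir126a kept 25 reads in replicate 1 and 13 in replicate 2, and Mir126b had 0 in both. The column of reads opposite to Mir126b held 221596 and 162181 reads. Together with the 25 and 13 these give exactly the Mir126a counts, so all other Mir126a reads overlapped Mir126b. The 25 and 13 reads, 0.0113% and 0.00802% of the Mir126a reads, touched the hairpin only in the 6 or 9 bases that Mir126a has to itself. Such reads do not cover the whole of miR-126a-3p. The reads opposite to Mir126b equal 36.3% and 21.1% of all reads that the tables call ambiguous when strand is ignored. Of the 22 bases of miR-126a-3p, 19 lie within Mir126b.

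A low count on 1 of the 2 strands was common among annotated opposite-strand hairpins, as low counts were among all hairpins. Of all 2202 hairpins, 326 had at least 10 reads in a library and 648 had at least 1. A low count on the lower hairpin thus says little about strand by itself. The tables hold 32 opposite-strand pairs, and in 17 of them the hairpin with the higher mean had at least 100 reads in a library. In 15 of these 17 the lower hairpin stayed below 10 reads in both libraries, Mir126b among them, and in 9 it had 0 reads in both. The exceptions were Mir3107, opposite Mir486, with 61 reads in replicate 1 and 118 in replicate 2, and Mir3074-1, opposite Mir24-1, with 31 in each. Those made up 2.95% and 7.10% of the counted reads of the Mir486 pair, and 9.42% and 6.21% of the Mir24-1 pair. Reads matching several places are outside these shares, and how they would change them was not tested. Mir378a, Mir191 and Mirlet7e likewise had 0 reads on the lower hairpin in both libraries. Mir126a supplied 36.4% of the reads on the higher hairpins of the 17 pairs in replicate 1 and 21.1% in replicate 2.

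**Figure D2:**
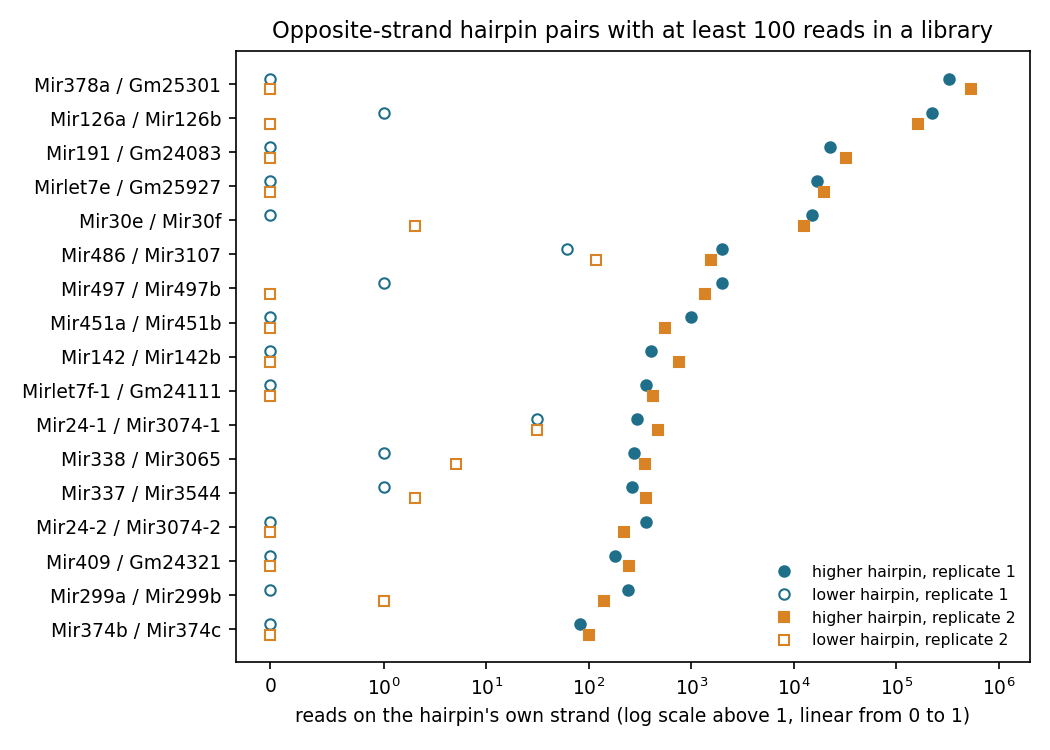
Reads on each hairpin's own strand (x axis, logarithmic above 1 read) for the 17 opposite-strand pairs with at least 100 reads in a library (y axis), with filled symbols for the higher and open symbols for the lower hairpin of a pair, circles for replicate 1 and squares for replicate 2. Mir126b stands at 1 and 0 reads beside 221621 and 162194 reads of Mir126a, and Mir3107 and Mir3074-1 are the lower hairpins with 10 reads or more.

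Mir126a was among the most abundant hairpins of both hearts. Its level was 108082 CPM in replicate 1 and 60950 CPM in replicate 2, a mean of 84516 ± 33327 CPM. As a share of hairpin reads this was 10.8% in replicate 1, with a Wilson 95% interval of 10.8 to 10.9%, and 6.10% in replicate 2, with an interval of 6.07 to 6.12%. The mean share was 8.45% ± 3.33. Of all reads in the tables, including unmapped ones and those matching several places, Mir126a held 4.43% in replicate 1 and 2.51% in replicate 2. The spread between the hearts was far wider than the counting intervals.

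In the order of levels, Mir126a came second by mean and in replicate 1, and had rank 5 in replicate 2. Mir378a, a microRNA in an intron of the metabolic coactivator gene Ppargc1b, was above it in both hearts. Of the 3 hairpins next below by mean, Mirlet7i had 67631 CPM in replicate 1 and 74432 in replicate 2, Mir23b had 62442 and 70615, and Mirlet7g had 59366 and 60751. Mir126a exceeded Mirlet7i 1.60-fold in replicate 1, where the exact interval was 1.59 to 1.61, and stood at 0.819 of it in replicate 2, with 0.814 to 0.824. Against Mirlet7g the ratio was 1.82 in replicate 1 and 1.00 in replicate 2, where its interval of 0.996 to 1.01 includes equality. The place of Mir126a above Mirlet7i, Mir23b and Mir23a thus held in replicate 1 and was turned round in replicate 2. Its second place by mean does not stand apart from these neighbours beyond the spread of the 2 hearts. Divided by hairpin length, its level also ranked 2 by mean.

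The hairpins nearest to Mir126a in level were let-7 and miR-23 hairpins. By the distance of log2(CPM + 1) over the 2 libraries, the nearest 5 were Mirlet7i at 0.735, Mir23b at 0.820, Mirlet7g at 0.864, Mirlet7b at 1.07 and Mir23a at 1.24. The let-7 family is known for restraining cell growth, and the miR-23 hairpins belong to clusters with miR-27 and miR-24 that are expressed in endothelium and other cells. With 2 libraries this likeness describes levels only.

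Among these neighbours, Mir126a had the sequence least shared with other hairpins. Its longest run in common with any of the 2201 other hairpins of the tables, read on its own strand, was 11 bases, with Mir7039. Mir23a and Mir23b share a run of 20 bases, Mirlet7i and Mirlet7g share 19, and Mirlet7b shares 19 with Mirlet7c-2. The 2 let-7 arms, with seeds in capitals, show that likeness.
let-7i-5p: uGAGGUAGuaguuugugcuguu
let-7g-5p: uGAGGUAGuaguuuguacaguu
Reads that matched several places made up 38.5% of the reads in replicate 1 and 41.6% in replicate 2 and entered no hairpin count. How many of them came from any of these hairpins was not tested, so the order of levels holds for the counted reads.

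**Figure D3:**
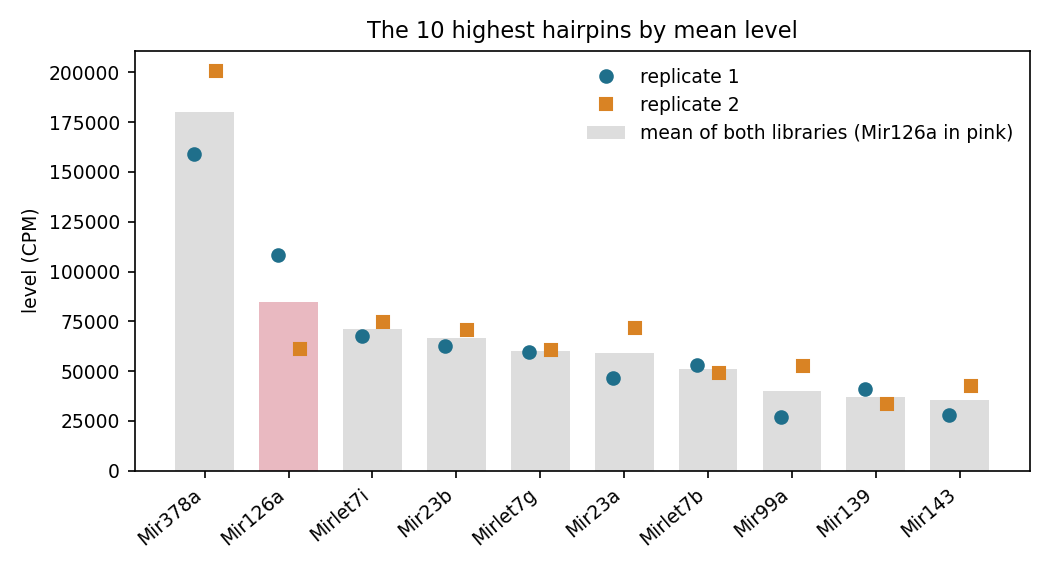
Level (y axis, CPM) of the 10 hairpins with the highest mean (x axis), with circles for replicate 1, squares for replicate 2 and bars for the mean of both. Mir126a has 108082 CPM in replicate 1 and 60950 CPM in replicate 2, so its points lie on either side of those of Mirlet7i, Mir23b and Mir23a.

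Between the 2 hearts, Mir126a was higher in replicate 1. After TMM scaling its ratio of replicate 1 over replicate 2 was 1.51-fold, a log2 ratio of 0.60, and over the library sums it was 1.77-fold. The exact two-sided binomial test of its reads gave an adjusted p below 1e-300 over 326 tested hairpins, those with at least 10 reads in a library. The test sets 1 library against the other and says nothing about conditions, and 62.6% of the tested hairpins passed it, 26.4% higher and 36.2% lower in replicate 1. With library sums 59.2% passed, 35.9% higher and 23.3% lower, and with DESeq2 size factors 58.3% passed, 27.9% higher and 30.4% lower. The call therefore says little about Mir126a in particular.

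By the TMM-scaled log2 ratio, the size of the difference lay near the middle of the tested hairpins. That ratio, 0.60, was the smallest that Mir126a had under any scaling or filter tried. An absolute log2 ratio as large as that of Mir126a or larger was found in 155 of 326 hairpins, and in 22 of the 50 hairpins with the highest mean. The median absolute log2 ratio was 0.56. On the CPM scale, the coefficient of variation of Mir126a was 39.4%, against a median of 25.1% over the 288 hairpins with at least 10 reads in both libraries. Of the 288, 92 reached the value of Mir126a, itself included. In the nearest 5 hairpins by level it was lower, from 1.63% in Mirlet7g to 30.3% in Mir23a. Of the 10 highest hairpins, Mir126a and Mir139 were higher in replicate 1 and the other 8 were lower, although Mirlet7b turned to a log2 ratio of 0.11 when scaled by library sums. In bulk tissue, fewer endothelial cells and less Mir126a per cell cannot be told apart.

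A list of 25 microRNAs linked to endothelium and vessel growth gave the context of Mir126a. It was chosen with earlier results of these data known. Of the 25, 21 had at least 10 reads in both libraries. The other 4 were Mir126b, Mir218-1 with 11 reads in replicate 1 and 1 in replicate 2, and Mir19a and Mir19b-1 with 2 and 1 reads each. Mir126a alone held 46.1% of the counted reads of the list in replicate 1 and 27.7% in replicate 2. The other 23 together held 12.6% of hairpin reads in replicate 1 and 15.9% in replicate 2, most of them from Mir23a and Mir23b. Reads matching several places are in none of these shares.

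The members of the list went both ways. Of the 21 tested members other than Mir126a, 5 were higher in replicate 1, 11 were lower and 5 did not pass the test, with a median log2 ratio of -0.26 against -0.09 over all tested hairpins. The share called higher was 23.8%, near the 26.4% of all tested hairpins, and the share called lower was 52.4%, against 36.2%. By library sums, 7 were higher, which is 33.3% against 35.9% of all tested hairpins, and 9 were lower, which is 42.9% against 23.3%.

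The members of the miR-23, miR-27 and miR-24 clusters split. Mir23a had 46419 CPM in replicate 1 and 71727 in replicate 2 (log2 ratio -0.86), so it went the other way from Mir126a. Mir23b had 62442 and 70615 CPM (log2 ratio -0.41). Mir27b, which lies in the cluster of Mir23b, had 6407 and 4834 CPM, and its log2 ratio of 0.18 had the sign of Mir126a. Mir27a had 1447 CPM in replicate 1 and 1086 in replicate 2, with the same log2 ratio of 0.18. Mir24-1 had 298 and 468 reads and Mir24-2 had 357 and 221, with log2 ratios of -0.50 and 0.83. Reads matching several places are not in these counts, so the counts need not give the full level of miR-24.

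Of the 15 tested members outside those clusters, 8 were lower in replicate 1, 2 were higher and 5 did not pass the test, against 36.2% lower and 26.4% higher over all tested hairpins. By library sums, 6 were lower and 4 were higher, against 23.3% and 35.9%. Mir221, which with Mir222 restrains the receptor Kit in human endothelial cells, had 798 CPM in replicate 1 and 1375 in replicate 2 (log2 ratio -1.01). Mir222 had 40.5 and 62.4 CPM (log2 ratio -0.84). The Hox cluster microRNAs Mir10a and Mir10b had 837 and 487 CPM in replicate 1, and 1166 and 886 CPM in replicate 2, with log2 ratios of -0.71 and -1.09. Mir130a had 2361 and 2825 CPM (log2 ratio -0.49), and Mir132, known from hypertrophy and activated endothelium, had 350 and 406 CPM (log2 ratio -0.44). These 6 were lower in replicate 1 under TMM, library sums and DESeq2 size factors.

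Mir210, the microRNA induced by low oxygen, was the detected member with the widest excess in replicate 1. It had 314 CPM in replicate 1 and 82.3 CPM in replicate 2 (log2 ratio 1.69, adjusted exact binomial p = 1.79e-58). Mir218-1 also passed, with 11 reads against 1. Mir92-1, Mir20a and Mir18 of the miR-17-92 cluster lay close to 0. Mir92-1, whose product restrains vessel growth in mice, had 1985 and 1646 CPM (log2 ratio 0.04), Mir20a had 614 and 555 CPM (log2 ratio -0.09), and Mir18 had 83.9 and 67.6 CPM (log2 ratio 0.08). None of these 3 passed the TMM-scaled exact binomial test with the filter of at least 10 reads. By library sums Mir92-1 and Mir20a were called higher in replicate 1, and Mir92-1 also with DESeq2 size factors. With TMM, Mir92-1 was called higher with at least 1 or at least 50 counts, and without the other hairpins among the 10 highest. Mir17 passed with TMM, at 1190 and 1212 CPM (log2 ratio -0.26), and lost the call by library sums. Mir31 had 264 and 283 CPM (log2 ratio -0.33) and lost its call in the same way. Mir296 and Mir218-2, with log2 ratios of -0.10 and -0.26, did not pass.

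**Figure D4:**
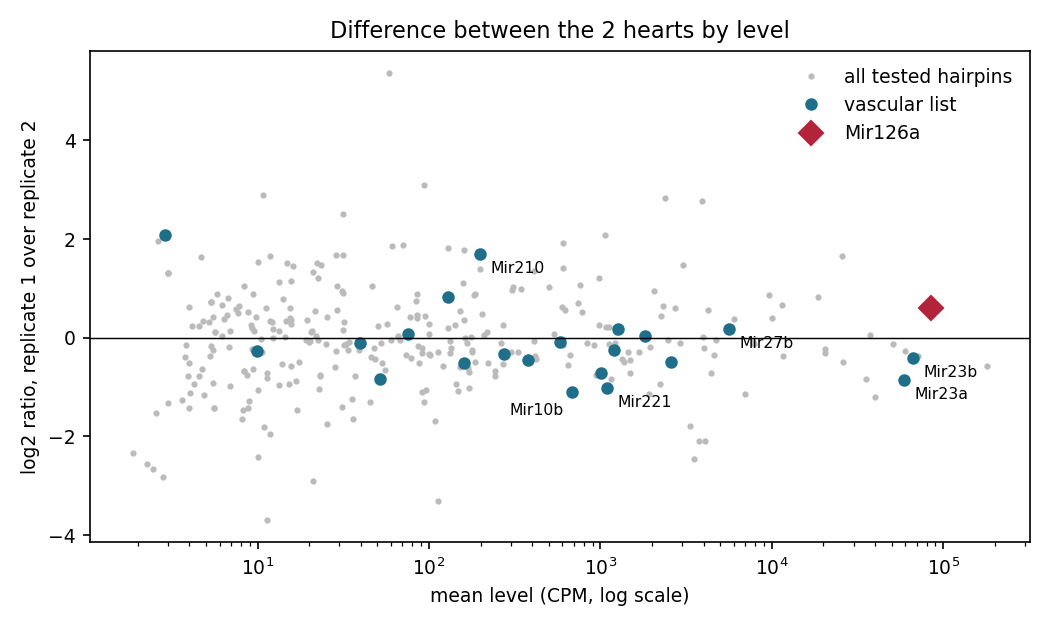
Log2 ratio of replicate 1 over replicate 2 after TMM scaling (y axis) against mean level in CPM (x axis, logarithmic) for the 326 tested hairpins in grey, the vascular list in blue and Mir126a as a red diamond. Mir126a lies at 0.60 above the line at 0, while Mir23a and Mir23b, of similar level, lie below it.

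Lists of microRNAs typical of other cell types also differed between the libraries, and their counts stand against the background above, in which 26.4% of all tested hairpins were higher and 36.2% lower in replicate 1. The mural list, Mir143 and Mir145a of smooth muscle cells and pericytes, summed to 29354 CPM in replicate 1 and 48287 in replicate 2, and both members were lower in replicate 1, with TMM and with library sums. Mir126a was 3.68 times that sum in replicate 1 and 1.26 times in replicate 2. Relative to Mir143 alone, the ratios were 3.84 and 1.43. With 2 members and that background, the count says little about mural microRNAs as a group.

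The sum of the erythroid list, which marks red blood cells, was 1783 CPM in replicate 1 and 869 CPM in replicate 2, and all 3 of its members, Mir486, Mir451a and Mir144, were higher in replicate 1, with log2 ratios of 0.52, 0.98 and 1.74. Over all tested hairpins 26.4% were called higher, so a list of 3 carries little weight here. The fibroblast list summed to 6244 and 2424 CPM, with Mir199a-1, 1 of its 5 hairpins, at 0 in both libraries, and its excess in replicate 1 came from Mir214, with 8717 reads against 1353. Mir21a was called lower, a call lost by library sums, and Mir199b did not pass.

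The leukocyte and cardiomyocyte lists each held members that differed in opposite directions, which their sums do not show. The leukocyte list, of which 4 of 6 symbols were matched, summed to 4647 CPM in replicate 1 and 4648 CPM in replicate 2. Of the 4 matched members, 1 was higher and 3 were lower in replicate 1. The unmatched symbols were Mir142hg and Mir146a. A hairpin named Mir146, with 1372 and 1083 CPM (log2 ratio 0.11, called higher), is not in the sum, so its near equality holds for the 4 matched members only. Mir155 was the higher one, at 2981 and 1632 CPM (log2 ratio 0.64), while Mir150 had 1343 and 2509 CPM (log2 ratio -1.13), and Mir223 and Mir142 were also lower.

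The cardiomyocyte list summed to 4496 and 8311 CPM, and its lower sum in replicate 1 came from Mir208a. Of its 8 hairpins, 4 reached 10 reads in both libraries and were tested. The other 4, Mir1a-1, Mir133a-1, Mir133a-2 and Mir133b, had 8 reads or fewer in each library. Reads matching several places are in none of these counts, so the counts and the sum need not give the full level of miR-1 or miR-133. How many such reads came from these hairpins was not tested. The median log2 ratio of those 4 was 0.25, with 2 higher, 1 lower and 1 that did not pass. Mir208a, from an intron of the cardiac myosin gene Myh6, was the lower one, with 3322 reads in replicate 1 and 15598 in replicate 2. Mir1a-2 had 94 and 31 reads (log2 ratio 1.67) and Mir208b, from the myosin gene Myh7, had 391 and 297 (log2 ratio 0.54), both higher in replicate 1. Mir499, from the myosin gene Myh7b, had 5391 and 6167 reads and did not pass with TMM, but was called higher by library sums. MicroRNAs of heart muscle were thus present in both hearts. The part of these cell types in the difference of Mir126a was not tested.

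**Figure D5:**
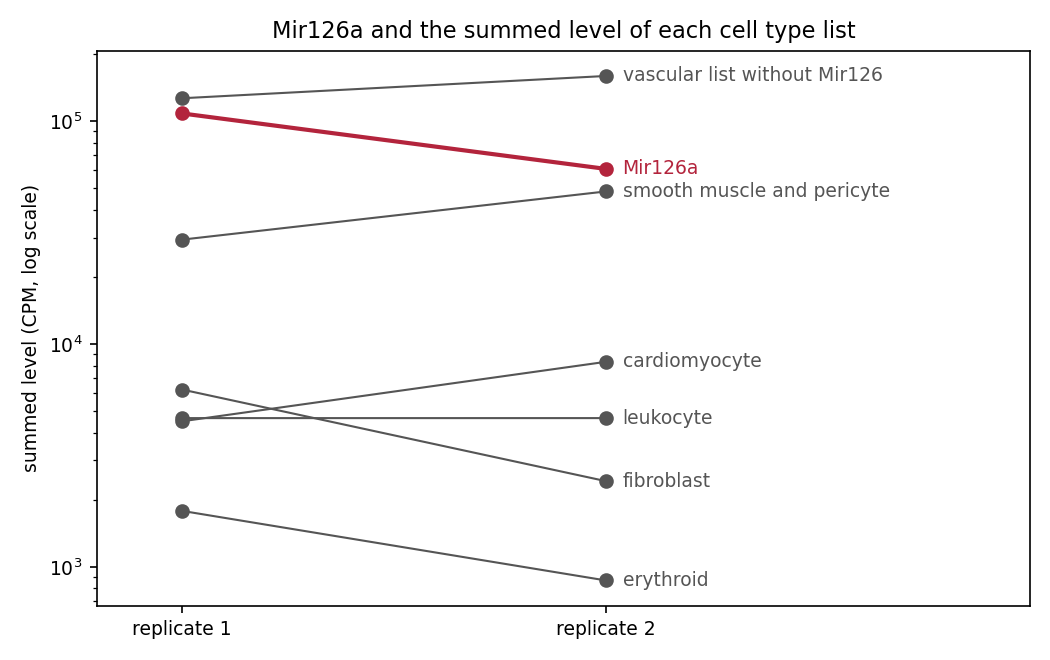
Summed level (y axis, CPM, logarithmic) of Mir126a, in red, and of the lists of cell type microRNAs, in grey, in replicate 1 and replicate 2 (x axis), with a line joining the 2 values of each. Mir126a, the erythroid and the fibroblast list are higher in replicate 1, and the mural, cardiomyocyte and remaining vascular lists are lower there. Reads matching several places are in none of the sums.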

How the data were processed

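Counts in the deposited tables are unnormalized reads on each hairpin, 1 table for each of the 2 libraries, placed on mm10 with GENCODE M21 per the text notes deposited by the authors. The sources used here name no aligner or counter. The 3 count columns hold unstranded, same-strand and opposite-strand reads, and the same-strand column, whose sum exceeded that of the opposite-strand column, was used. Rows naming no hairpin stayed out of library sums: reads matching several places (38.5% in replicate 1 and 41.6% in replicate 2), unmapped reads (14.1% and 11.5%) and reads in no hairpin (6.48% and 5.64%).

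All 2202 identifiers matched GENCODE M21, and sequences came from RefSeq. Mature arms are not separated in these tables, and reads of both parental genomes are counted together. TMM factors came from edgeR 4.0.16 in R 4.3.3, and exact binomial tests with Benjamini-Hochberg adjustment, called at 0.05, from scipy 1.17.1. Log2 ratios used TMM-scaled CPM plus 1. The library test was tested on simulated data that held counting error alone, without the spread between animals. Structures came from RNAfold 2.7.2. That the replicates are separate animals rests on the labels, and p-values compare the libraries only.

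The members and lists were chosen with earlier results of these data known. Named hairpins were Mir126a and Mir126b, the nearest 5 in level, the 3 next above and below in mean level where they exist, detected members of the vascular list, and the 10 highest opposite-strand pairs. Mir3107, Mir3074-1, Mir139, Mir146, Mir218-1, Mir19a, Mir19b-1, Mir7039 and members of the other lists were named after their values were seen. Alternatives covered the count column, totals, filters, scaling including DESeq2 1.42.0, pseudocounts and each replicate left out. The rank per base and the vascular list count were added after seeing the data.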

Additional observations from a re-analysis of the deposited data

Results flagged for a closer look

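Reads matching several places lie outside the hairpin counts and exceeded the 3 reads that a count of 0 allows, with 1925044 in replicate 1 and 2686901 in replicate 2. That does not show that they are unusual. Groups of 2 samples were too small to look for outlying samples.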

How the results depend on the processing

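The mean share of Mir126a was 8.45% and moved to 0.00121% in counts without regard to strand, 3.47% of all reads in the tables and 20.7% without the other hairpins among the 10 highest. It ranged from 6.10 to 10.8% when each replicate was left out. Its rank of 2 became 249 without regard to strand and ranged from 2 to 5 when each replicate was left out. The log2 ratio of Mir126a kept its sign and its call under all 8 alternatives to the fit, from 0.60 to 0.83. The pseudocounts among them do not enter the test and could hardly move a ratio at this level. The count of hairpins called was 204 of 326 tested. Among the 6 other fits, it was 177 of 648 with at least 1 count and 165 of 223 with at least 50 counts. In the remaining fits it lay between 173 and 193, of 285 to 326 tested. The called share thus depended on the filter. Library sums gave 117 higher and 76 lower against 86 and 118 with TMM, and moved the median log2 ratio of all tested hairpins from -0.09 to 0.14. The vascular list had 17 called hairpins of 22 tested, 77.3% against 62.6% of all tested hairpins. Among alternatives chosen after seeing the data, it had 13 of 17 without hairpins with a locus number, against 173 of 285 over all tested hairpins. With at least 50 counts it had 16 of 20 against 165 of 223, and with at least 1 count 18 of 25 against 177 of 648. In the others it had 16 to 18 of 20 to 22, against 184 to 193 of 317 to 326. The margin of the list over all tested hairpins thus depended on the filter. Mir126b stayed at or under the floor of 3 reads in every column counted on its own strand or without regard to strand.

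Of 24 other named hairpins, 6 changed sign or call. Mir17, Mir31 and Mir92-1 changed their call only, and 3 changed sign. Mir296 turned to 0.1241 by library sums, 0.0016 with at least 1 count, 0.0635 with at least 50 counts, 0.0033 without the other hairpins among the 10 highest and 0.055 without hairpins with a locus number. Under the same alternatives Mir20a turned to 0.1433, 0.018, 0.0812, 0.0196 and 0.0725. Mirlet7b turned to 0.1076 by library sums, 0.0454 with at least 50 counts and 0.0367 without hairpins with a locus number. The cause was not tested. No paired analysis was possible because there is 1 group. Both libraries are deep for Mir126a, and the limit of 3 reads bounds what can be said of Mir126b.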
